A study of Mus musculus with 10 samples.

Results

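Basement membranes and collagen fibrils are built from a few families of large secreted proteins, and 60 of the 19333 genes in the authors' comparison of Apc-deleted and wild-type oligodendrocyte precursor cell (OPC) cultures encode them. They were taken by symbol alone: every collagen chain (Col, a number, a, a number), every laminin alpha, beta or gamma chain (Lama, Lamb, Lamc), and Nid1, Nid2, Hspg2, Agrn, Fn1, Sparc and Lox. Col4a3bp begins like a collagen but encodes a ceramide transporter and was left out. The GENCODE M21 annotation holds 62 such genes, and the other 2, Col10a1 and Col17a1, were not among the genes listed in the comparison. The lowest mean normalized count of the 60 in it was 8.22 (Lamb3), 58 had 10 or more, and 35 had 100 or more.

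The OPCs were immunopanned from Olig2-Cre:Apc-fl/fl mice (3 libraries) and from Apc-fl/fl littermates without Cre, which served as wild type (3 libraries), and were grown for 3 days in medium with PDGFAA. Cre was thus driven by Olig2, which marks the oligodendrocyte lineage and also early motor neuron progenitors, and both genotypes carried the floxed allele. The immune cells came from the spinal cords of Pdgfra-CreER:Apc-fl/fl mice with EAE, a model of inflammatory demyelination, taken on day 18 of disease induction. CD11b+Gr-1+NK1.1+ cells, called cytotoxic macrophages (3 libraries, with the codes UK1A, UK2A and UK3A), and CD4+ cells labelled Th1 (1 library) were sorted from them, and no immune library from mice without Cre was analysed here. The labels do not say whether libraries of a group came from separate animals or cultures, so the spread between them may be technical, and ages were not given.

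Collagens are trimers of chains wound around each other. Fibrillar collagens make the striated fibrils of bone, cartilage, skin and vessel walls, whereas collagen IV makes the sheet-like network of basement membranes, on which laminin trimers (1 alpha, 1 beta and 1 gamma chain) form a second network. Nidogens and the heparan sulfate proteoglycans perlecan (Hspg2) and agrin (Agrn) tie both networks together, and cells bind them through integrins and dystroglycan. In the central nervous system basement membranes lie around blood vessels and under the pia, and OPCs touch them there. Apc is a scaffold of the complex that destroys beta-catenin, so its loss turns on Wnt target genes.

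In the authors' deposited table the Wnt targets Notum, Lef1, Sp5 and Axin2 stood at log2 fold changes of 4.90 (SE 0.49), 1.89 (SE 0.29), 2.10 (SE 0.33) and 1.01 (SE 0.20) once the sign was turned to Apc-deleted over wild type. The table names no numerator, and this direction was read from those genes. Apc itself stood at -0.14 (SE 0.13) in the authors' deposited table, which counts the whole gene, so it does not check the floxed part. OPC markers lay at a median of the 88.1st percentile of level per exon length, 8 of 8 listed, and neuron markers at the 98.9th (7 of 7 listed). Depth was between 23174908 and 23564215 estimated reads in the macrophage libraries and 3051730 in the Th1 library. Neutrophil markers summed to between 433539 and 436626 TPM (a level that allows for transcript length and depth) in the macrophage libraries. Macrophage markers summed to between 22887 and 23125 TPM in the same libraries. In the library labelled Th1, 1 of 5 T cell markers had a read (Lck), and Cd3e and Cd4 had none.

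Of the 60 matrix genes, none passed an adjusted p of 0.05 between Apc-deleted and wild-type OPCs in the authors' deposited table, where 106 of all 19333 genes did (0.548%). At an unadjusted p under 0.05 there were 2 of 60 (3.33%), Col9a1 and Lama2, against 701 of all genes (3.63%). These shares are close to each other. The sizes were small as well: the median absolute log2 fold change in the authors' deposited table was 0.12 for the matrix genes and 0.14 for all genes. Values for single libraries were not at hand for the OPC cultures, so each change is given with the standard error of the authors' table.

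The intervals say how large a change the table leaves room for. For 45 of the 60 genes (75%) the 95% interval (normal approximation from the SE) lay wholly within a 2-fold change in either direction, compared with 66.5% of all genes in the authors' deposited table. This held for all 35 matrix genes with a mean of 100 normalized counts or more, where 96.4% of all genes at that level did the same, and for 10 of the 25 below that. An interval within 1.5-fold was found for 31 of the 60, beside 9053 of all 19333 genes. At a mean of 100 or more it was found for 29 of 35, beside 8672 of all 10451 genes at that level. Standard errors were those of other genes at the same level, with a median ratio of 1.01 to the 200 genes nearest in mean (range 0.83 to 1.64, the highest for Col16a1).

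Direction leaned to lower values without a call for any gene. Of the 60, 36 (60%) had a negative log2 fold change in the authors' deposited table, against 49.7% of all genes, and the median was -0.05 against 0.00. Among the 35 with a mean of 100 or more, 25 were negative (71.4%), compared with 49.8% of all genes at that level. No test of this lean was made. In bulk libraries like these, fewer cells of a type and less RNA per cell cannot be told apart. Of the endothelial markers, 9 of 10 were negative in the authors' deposited table (median -0.11, summed level 1043 normalized counts per kb, Cldn5 the highest). Of the pericyte and mural markers 5 of 9 were negative there (median -0.10, summed level 379), near the share of all genes, and Acta2 stood at 0.69 (SE 0.31, p = 0.0266) in the authors' deposited table. All 7 neuron markers, 5 of 6 astrocyte markers and 8 of 8 neutrophil markers were negative too in the authors' deposited table, with medians of -0.06, -0.05 and -0.30. The neutrophil markers had a median SE of 0.57, and 4 of the 8 had a mean of 10 or more. None of these markers was called. Fibroblast and meningeal markers were negative in 6 of 10 and Schwann markers in 3 of 4 in the authors' deposited table. There 5 of 8 OPC, 8 of 8 macrophage and 3 of 3 T cell markers (6 listed) were positive. Of these further lists, Fbln1, Lyz2 and Cd68 were called, all higher with Apc deletion. The part of any marked cell type in the lean of the matrix genes was not tested.

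**Figure D1:**
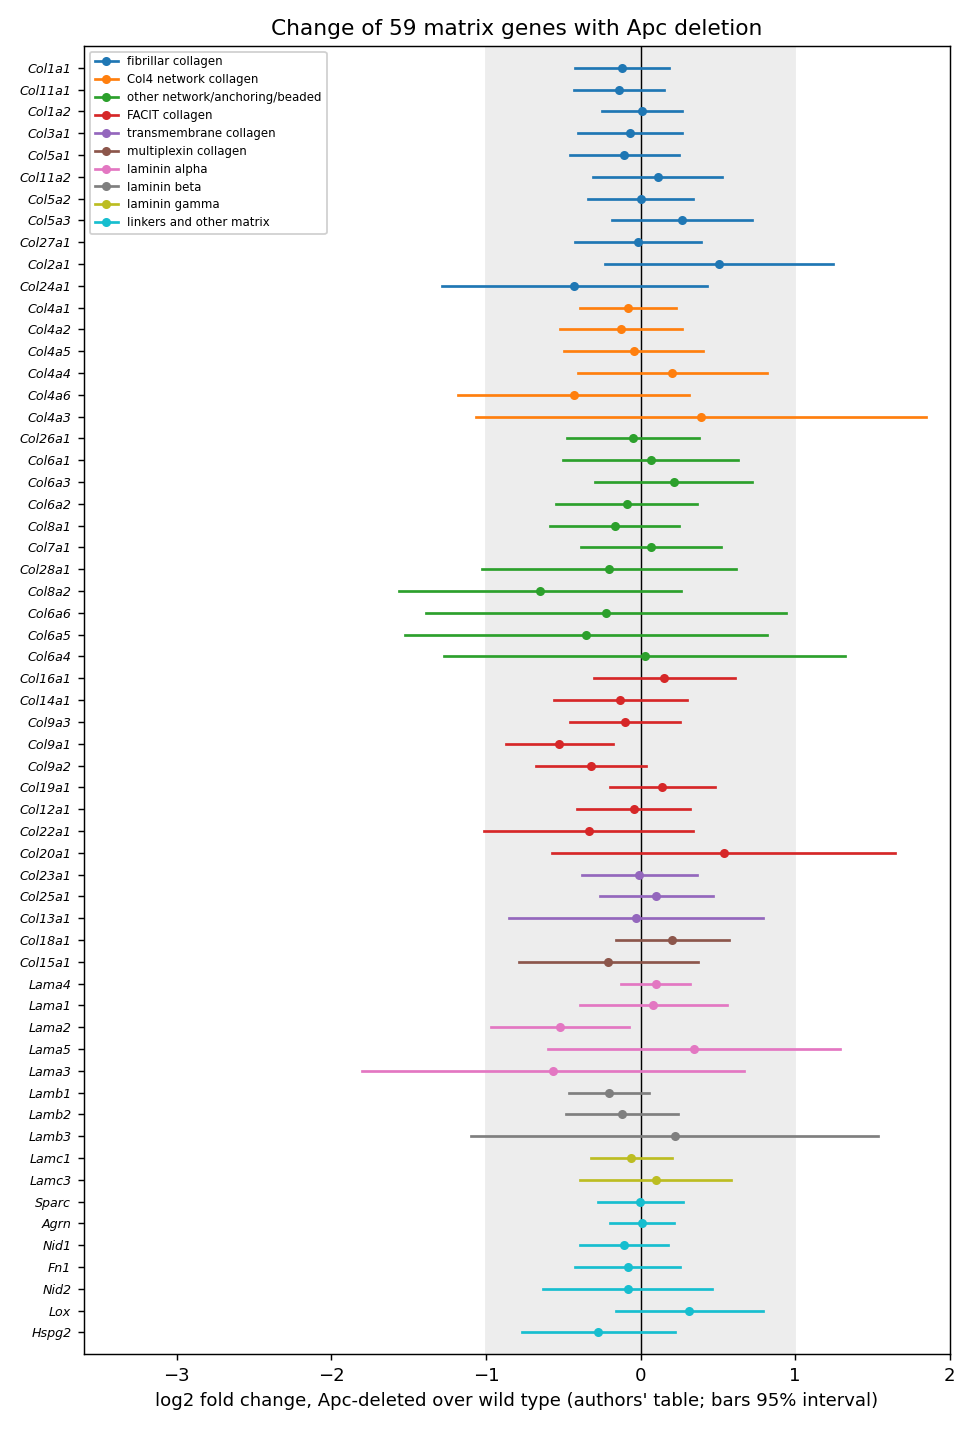
Log2 fold change of 59 of the 60 matrix genes (points, authors' deposited table, Apc-deleted over wild type, x axis) with its 95% interval (bars), coloured by class and ordered by level within a class (y axis); the grey band marks 2-fold in either direction. Of the 59 bars, 45 stay inside the band, and only those of Col9a1 and Lama2 leave out 0.

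**Figure D2:**
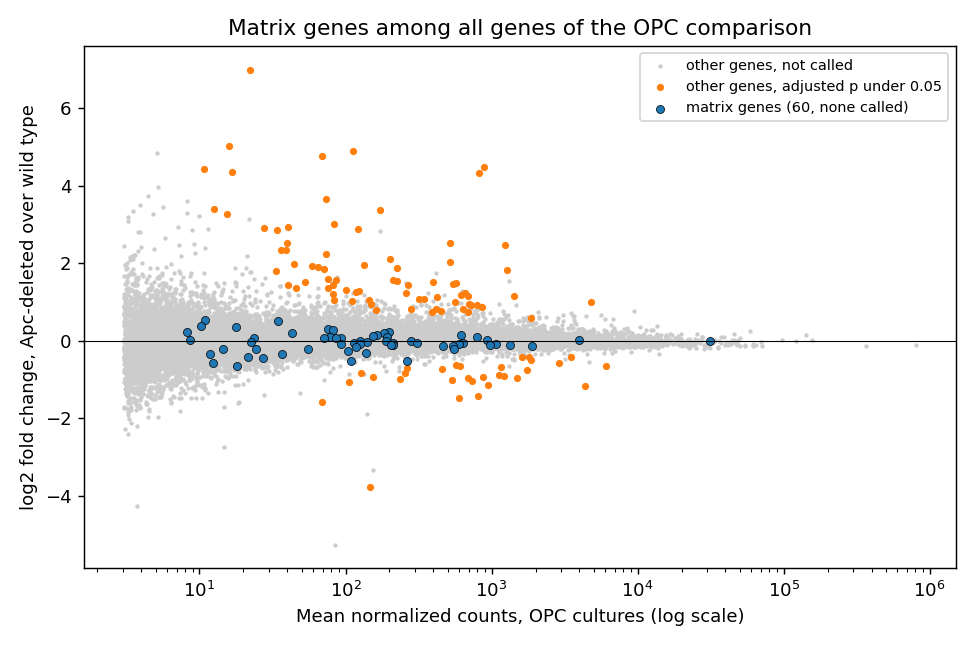
Log2 fold change (y axis, Apc-deleted over wild type, authors' deposited table) against mean normalized count (x axis, log scale) for all 19333 genes, with the 60 matrix genes in blue and the 106 called genes in orange. The matrix genes lie inside the grey cloud at every level, and Sparc is the blue point farthest to the right.

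Levels between genes are compared as mean normalized counts per kb of exon over the compared libraries of both genotypes. They carry no replicate error, so the order of close neighbours was not tested. By this measure Sparc made up 78.3% of the summed level of the 60 genes. The others were mostly modest, since the median matrix gene lay at the 36.1st percentile of all genes. The 42 collagen genes summed to 1315 normalized counts per kb and the 11 laminin genes to 267, against 8279 for Sparc alone. Each class was led by 1 or a few genes.

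**Figure D3:**
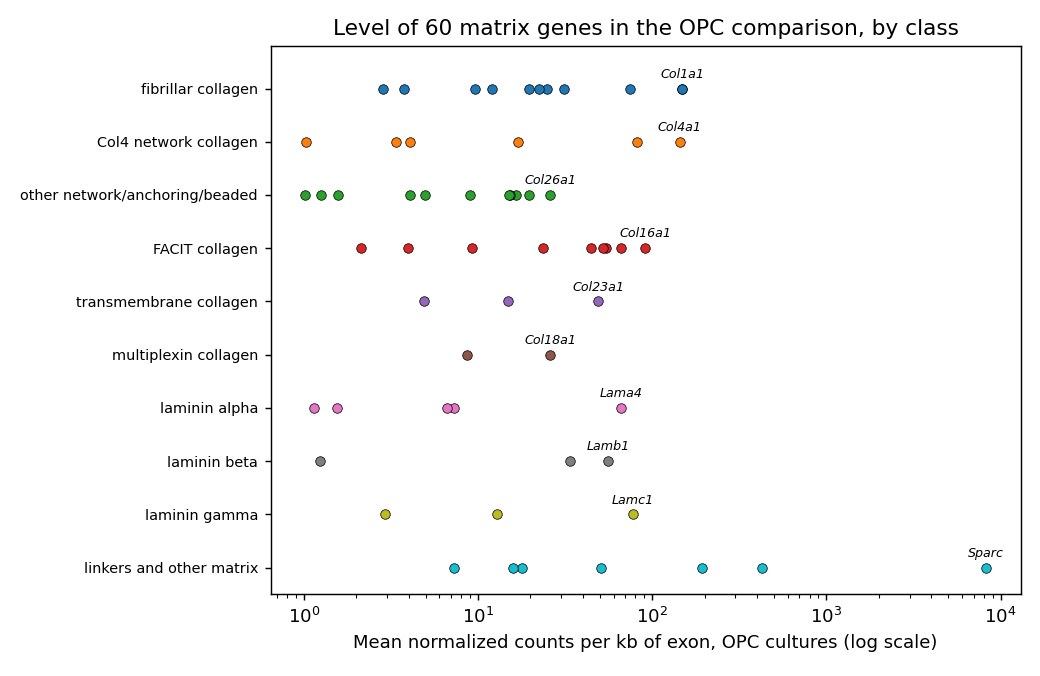
Level of each of the 60 matrix genes in the OPC cultures (mean normalized counts per kb of exon, x axis, log scale) by class (y axis), with the highest gene of each class named. Points are single genes, and values run from 1.01 for Col6a4 to 8279 for Sparc.

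Per union of exons, the linkers and matricellular proteins held the 3 highest levels of the 60. Sparc, a collagen-binding matricellular protein, lies on chromosome 11 (GRCm38, 55394500 to 55423183, minus strand) and stood at 8279 normalized counts per kb, the 99.7th percentile of all genes. Its log2 fold change in the authors' deposited table was -0.00 (SE 0.14), and the 95% interval ran from 0.826-fold to 1.21-fold. Agrn, the proteoglycan that clusters acetylcholine receptors at the neuromuscular junction, followed at 427 normalized counts per kb with a log2 fold change of 0.01 (SE 0.11) in the authors' deposited table. Nid1, which bridges laminin and collagen IV, came next at 193 per kb, with a log2 fold change of -0.11 (SE 0.15) in the same table. Its place rests on the length used, since Col11a1 stood above Nid1 per longest transcript (246 against 220 normalized counts per kb) and in mean normalized count (1889 against 1340). The paralogues were unequal. Nid1 exceeded Nid2 10.8-fold in level, and Agrn exceeded Hspg2, the other large heparan sulfate proteoglycan, 58.5-fold.

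Hspg2 stood at 7.30 normalized counts per kb and at a log2 fold change of -0.27 (SE 0.25) in the authors' deposited table. Fn1, the fibronectin gene (chromosome 1, 71585520 to 71653200, minus strand), had a level of 51.0 per kb and a log2 fold change of -0.08 (SE 0.17) in the authors' deposited table. Lox, the enzyme that cross-links collagen and elastin, had 15.8 per kb and 0.32 (SE 0.24) in that table. None of the 7 genes of this class passed the test, and all 7 intervals lay within 2-fold.

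Laminins were led by 1 chain of each kind. Lama4, the alpha chain of endothelial basement membranes, stood at 65.9 normalized counts per kb, Lamb1 at 56.0 and Lamc1 at 77.6. These are the 3 chains of laminin-411. Lama4 stood 1.18-fold above Lamb1 and at 0.849 of Lamc1, and per longest transcript it stood 1.37-fold and 1.56-fold above them, so the order of Lama4 and Lamc1 rests on the length used. Lama4 exceeded Lama2, the alpha chain of muscle and Schwann cell laminin, 9.91-fold, while Lamb1 exceeded Lamb2 1.66-fold (2.64-fold per longest transcript) and Lamc1 exceeded Lamc3 6.02-fold. Lama3 and Lamb3, found mainly in epithelial basement membranes, were at 1.15 and 1.24 per kb.

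Lama2 (chromosome 10, 26980036 to 27619758, minus strand) had the lowest unadjusted p of any laminin in the authors' deposited table, with a log2 fold change of -0.52 (SE 0.23, p = 0.0224), and an adjusted p of 1. Its interval, 0.511-fold to 0.950-fold, stayed below 1, without allowance for the 19333 genes tested. Lama4, the more abundant alpha chain, stood at 0.10 (SE 0.11) in the authors' deposited table, with an interval of 0.915-fold to 1.25-fold. Lamb1 stood at -0.20 (SE 0.13) and Lamc1 at -0.06 (SE 0.13) in that table. Lama5 was at 0.35 with an SE of 0.48 at a mean level of 1.55 per kb. Over the 11 laminins 6 were positive and 5 negative in the authors' deposited table, with a median of 0.06, and none was called.

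Collagen IV is encoded by 6 genes that lie as head-to-head pairs, each pair reading away from a shared start region. Col4a1 and Col4a2, the chains of nearly every basement membrane, overlap on opposite strands by 22 bases at their annotated starts, and Col4a4 and Col4a3 leave 71 bases between their starts, which no annotated exon covers. Both stretches are shown on the plus strand of GRCm38 because each is the whole sequence that separates or joins the starts of a pair. They hold 72.7% and 69.0% G and C.

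Col4a1/Col4a2, chr8:11312805-11312826: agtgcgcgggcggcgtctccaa

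Col4a4/Col4a3, chr1:82586850-82586920: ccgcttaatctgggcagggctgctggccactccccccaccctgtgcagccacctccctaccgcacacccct

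The starts of Col4a6 and Col4a5 on chromosome X lie farther apart, with 1308 bases between them. Col4a1 (chromosome 8, 11198423 to 11312826) and Col4a2 (11312805 to 11449287) were by far the highest, at 143 and 82.0 normalized counts per kb, a ratio of 1.75. No source used here states whether the counting used strand, so reads in their 22 shared bases could belong to either. Col4a5 followed at 17.0, and Col4a4, Col4a6 and Col4a3 at 4.07, 3.40 and 1.03 per kb. Genes that share a start region were not equally abundant: Col4a4 exceeded Col4a3 3.96-fold and Col4a5 exceeded Col4a6 5-fold in level.

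With Apc deletion both genes of each pair had the same sign in the authors' deposited table. The statistic farthest from 0 among the 6 was -1.13, that of Col4a6. Col4a1 stood at -0.08 (SE 0.16) and Col4a2 at -0.12 (SE 0.20). Col4a4 stood at 0.21 (SE 0.31) and Col4a3 at 0.39 (SE 0.74). Col4a6 stood at -0.43 (SE 0.38) and Col4a5 at -0.05 (SE 0.23). None of these 6 changes in the authors' deposited table passed the test. For the abundant pair the intervals ran from 0.764-fold to 1.17-fold for Col4a1 and from 0.698-fold to 1.21-fold for Col4a2.

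Fibrillar collagens were led by Col1a1, the main chain of type I collagen (chromosome 11, 94936224 to 94953042, plus strand), at 149 normalized counts per kb, and by Col11a1, a chain that seeds thin fibrils in cartilage, at 148. Type I collagen takes 2 alpha1 chains for each alpha2 chain, and Col1a1 stood 1.99-fold above Col1a2 (74.7 per kb) in level. That ratio rests on the exon lengths: divided by the longest transcript in place of all exons, it was 0.950, and Col11a1 then led the class. Col11a1 exceeded its partner Col11a2 6.61-fold, and the collagen V chains Col5a1, Col5a2 and Col5a3 lay at 24.9, 19.7 and 12.1 per kb. Col3a1, the collagen of reticular fibres, was at 31.2 per kb and Col2a1, the collagen of cartilage, at 3.75.

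Their changes were small in the authors' deposited table. Col1a1 stood at -0.12 (SE 0.15), Col1a2 at 0.01 (SE 0.13) and Col11a1 at -0.14 (SE 0.15). The most positive of the class was Col2a1 (chromosome 15, 97975602 to 98004695, minus strand) at 0.51 (SE 0.38) in the authors' deposited table, with an interval of 0.851-fold to 2.37-fold. The most negative, Col24a1, stood at -0.43 (SE 0.44) in that table. Col5a3 was at 0.27 (SE 0.23). None of the 11 was called, and 9 of the 11 intervals lay within 2-fold.

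Collagens that sit on the surface of fibrils (FACIT collagens) held the lowest p of all 60 genes. Collagen IX is a trimer of the chains of Col9a1, Col9a2 and Col9a3, which coats cartilage fibrils. Per union of exons the 3 genes had similar levels in the OPC cultures, 52.1, 44.8 and 54.1 normalized counts per kb. Per longest transcript they stood at 68.8, 47.4 and 68.4, so their likeness rests in part on the length used. All 3 were negative in the authors' deposited table, in the order Col9a1, Col9a2, Col9a3. In the authors' deposited table Col9a1 (chromosome 1, 24177610 to 24252684, plus strand) stood at -0.53 (SE 0.18, p = 0.0028) with an adjusted p of 0.286, and the interval ran from 0.547-fold to 0.882-fold. Col9a2 stood at -0.32 (SE 0.18, p = 0.0795) and Col9a3 at -0.10 (SE 0.18, p = 0.57) in the authors' deposited table, both with an adjusted p of 1. Whether the 3 chains differed from each other was not tested.

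The other FACIT genes lay on both sides of 0 in the authors' deposited table. Col16a1 had the highest level of the class, 91.0 per kb, with 0.15 (SE 0.23). Col14a1, at 66.5 per kb, had -0.13 (SE 0.22). Col19a1 had 0.14 (SE 0.17), Col12a1 -0.04 (SE 0.19), Col22a1 -0.34 (SE 0.34) and Col20a1 0.54 (SE 0.57), the last at 2.13 per kb. Outside this class, Col26a1 led the other network and beaded-filament collagens at 26.0 per kb. The 3 main chains of collagen VI, which makes beaded microfilaments, had levels close to each other (Col6a1 19.7, Col6a2 15.2 and Col6a3 16.5 per kb) and stood at 0.06 (SE 0.29), -0.09 (SE 0.23) and 0.21 (SE 0.26) in the authors' deposited table. Col6a4, Col6a5 and Col6a6 lay between 1.01 and 1.58 per kb.

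Col8a2, a chain of the hexagonal lattice under the corneal endothelium, had the most negative log2 fold change of the 60, -0.65, with an SE of 0.47 at a level of 4.05 per kb in the authors' deposited table. Of the transmembrane collagens, Col23a1 led at 48.9 per kb and stood at -0.01 (SE 0.19) in that table, while Col25a1, found in amyloid plaques, was at 14.9 per kb with 0.10 (SE 0.19). Of the multiplexins, Col18a1, the precursor of endostatin, had 26.0 per kb and 0.21 (SE 0.19) in the authors' deposited table, and Col15a1 had 8.70 per kb and -0.21 (SE 0.29). No gene of these 3 classes passed the test.

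Promoters were searched because the perturbed pathway acts through TCF/LEF factors. RefSeq windows (GRCm38.p6) were at hand for 42 of the 60 genes, 49 windows in all, and the 250 bases before the start were read. The 4 TCF/LEF words searched were CTTTGAA, the form with another last letter CTTTGAT, and the forms CTTTGTA as well as lastly CTTTGTT, on either strand. No word contains TATAAA or CCAAT, which were counted beside them. A TCF/LEF word was found in 8 of 49 windows (16.3%), against 14.8% of all 32851 windows. The 8 windows belong to Agrn, Col13a1, Col15a1, Col20a1, Col28a1, Col6a2, Col9a1 and Col9a2. The TATA word TATAAA was in 10.2% of the members' windows and 12.4% of all, and CCAAT in 30.6% and 33.8%. The upstream window of Col9a1 is shown because this gene had the lowest p and holds a word, read on the plus strand with the word in capitals. RefSeq gives this gene a second window (chr1:24194953-24195202), which holds no TCF/LEF word and overlaps a Col9a1 exon. Lama2, the gene with the next lowest p of the 60, holds no TCF/LEF word in its window (chr10:27616943-27617192). That window precedes a RefSeq start at 27616942 and lies inside the gene as GENCODE places it, with a start at 27619758. The bases before the GENCODE start were not searched. The Col9a1 match is to letters only.

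Col9a1, chr1:24177360-24177609: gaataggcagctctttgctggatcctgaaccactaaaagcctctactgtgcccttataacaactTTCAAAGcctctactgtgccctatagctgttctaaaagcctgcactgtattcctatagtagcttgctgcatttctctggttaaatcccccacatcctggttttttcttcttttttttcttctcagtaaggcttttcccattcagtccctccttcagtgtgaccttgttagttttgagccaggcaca

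The enzymes that fold and modify collagen chains were not called either. Of 20 such genes 12 were positive and 8 negative in the authors' deposited table, with a median log2 fold change of 0.11, and none passed the test. The lowest p in the authors' deposited table was that of Plod2, a lysyl hydroxylase, at 0.33 (SE 0.17, p = 0.0598). P4hb, the shared subunit of the prolyl hydroxylases and a disulfide isomerase, stood at 0.24 (SE 0.19), and Colgalt2, a collagen galactosyltransferase, at 0.21 (SE 0.22) in that table. Of 14 genes for procollagen processing and cross-linking, 6 were positive and 8 negative in the authors' deposited table and none was called, with Tgm2, a transglutaminase, at -0.55 (SE 0.27, p = 0.0404). Pcolce2, an enhancer of procollagen C-proteinase, stood at 0.30 (SE 0.20) and Bmp1, that proteinase, at 0.15 (SE 0.14).

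Receptors for these proteins went in both directions. Of 22 receptor genes in the authors' deposited table (23 listed), 8 were positive, 14 negative and none called. Itgav, the integrin alpha-v chain, stood at 0.48 (SE 0.16, p = 0.0038, adjusted p = 0.349) and Itgb3, one of its beta partners, at -0.54 (SE 0.21, p = 0.0103, adjusted p = 0.685) in the authors' deposited table. Lair1, an inhibitory collagen receptor of leukocytes, was at 0.40 (SE 0.28). Itgb1 and Dag1, the common laminin receptor chains, had high levels (823 and 368 normalized counts per kb) and log2 fold changes of -0.07 (SE 0.10) each in the authors' deposited table. Of 14 TGF-beta ligands, receptors and targets there, 9 were positive, 5 negative and none called, with Ltbp1, a latent TGF-beta binding protein, at 0.34 (SE 0.18) and Ctgf at 0.40 (SE 0.25).

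Among other basement membrane and pericellular matrix genes, 1 of 22 (24 listed) was called in the authors' deposited table. The share called over all 19333 genes was 0.548%. Fbln1, encoding fibulin-1, a glycoprotein that binds fibronectin, laminin and nidogen, was higher with Apc deletion, at a log2 fold change of 1.22 (SE 0.33, adjusted p = 0.0357). For comparison, its partners Fn1, Nid1 and Lamc1 stood at -0.08, -0.11 and -0.06 in that table, as given above. Of this list, 6 genes were positive and 16 negative in the authors' deposited table, with Fbln5 at -0.80 (SE 0.39, p = 0.0405) and Ntn4, a netrin that binds laminin gamma chains, at 0.27 (SE 0.16). Fbln1 also stands on the list of 10 fibroblast and meningeal markers, whose other 9 members were not called and whose median was -0.07. The defining fibroblast genes Dcn and Lum stood at -0.24 (SE 0.17) and 0.12 (SE 0.59) in the authors' deposited table. Macrophage markers were positive in 8 of 8 (median 1.56) in the authors' deposited table, with Lyz2 at 4.33 (SE 0.96, adjusted p = 0.00243) and Cd68 at 1.54 (SE 0.36, adjusted p = 0.00729) called there, and Csf1r and Mertk at 0.01 (SE 0.16) and 0.00 (SE 0.15). Their part in the Fbln1 value was not tested. The SEs of Lyz2, Cd68 and Fbln1 were large for their level. Lyz2 had 0.96 at a mean of 823 normalized counts, against 0.16 for Csf1r at 769. Cd68 and Fbln1 had 0.36 and 0.33 at means of 224 and 259, against 0.17 for Dcn at 221. The highest SE ratio to genes nearest in mean was 7.12 among macrophage markers and 1.90 among fibroblast and meningeal markers. The source of this spread was not tested.

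In the sorted immune libraries matrix genes stayed under 1 TPM apart from Sparc and Fn1. Of the 62 genes in these files, 2 had 1 TPM or more in every macrophage library (29.2% of all 22064 genes did). Sparc had 16.75, 17.27 and 16.25 TPM in UK1A, UK2A and UK3A, with a mean of 16.8 ± 0.510 (SD, n = 3). Fn1 had 8.14, 8.22 and 8.17 TPM, with a mean of 8.18 ± 0.0404 (SD, n = 3). The 3 libraries were close for both genes. Lox had 4, 2 and 2 reads there (0.02, 0.01 and 0.01 TPM) and 0 in the library labelled Th1. The other 60 genes, Lox included, reached at most 0.67 TPM in any macrophage library. A read in at least 1 macrophage library was found for 43 of the 62, compared with 65.6% of all genes (14465 of 22064). By that measure the matrix genes did not stand apart from all genes. Col9a1, Lama2, Lama5 and Col4a5 were among those with no read in any of the 4 libraries.

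The library labelled Th1 held 28 Sparc reads (4.37 TPM), or 9.18 CPM (reads scaled for depth alone) with an exact 95% Poisson interval of 6.10 to 13.3. That was its only matrix gene at 1 TPM or more, while 10.2% of all genes reached this. Fn1 had 0 reads there, which allows up to 0.983 CPM at a floor of 3 reads (1.21 CPM by the exact 95% Poisson interval), against 119, 121 and 121 in UK1A, UK2A and UK3A. Hspg2 showed the opposite order: 13 reads in the library labelled Th1, 4.26 CPM (interval 2.27 to 7.28), against 0, 3 and 0 reads in the macrophage libraries. Col4a2 had 5 reads there and Col17a1 had 4, against at most 4 and 1 in any of the deeper macrophage libraries. Of the 19 matrix genes with a read in that library, 11 had exactly 1. Endothelial markers summed to 1875 TPM in that library and to between 43.2 and 47.0 in the macrophage libraries. Nearly all of it there was Ly6c1 (4294 reads, 1874 TPM), which some leukocytes carry too. Pecam1 had 1 read, and Cldn5, Cdh5, Flt1, Kdr, Tek, Tie1, Emcn and Slco1a4 had 0. Macrophage markers summed to 12396 TPM and neutrophil markers to 24391 TPM in the library labelled Th1. The part of other cell types in its Hspg2 and Col4a2 reads was not tested. The share of matrix genes with a read there, 30.6%, compares with 29.5% of all genes. A single library gives no test between the cell types, and the intervals and floors cover counting error only.

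**Figure D4:**
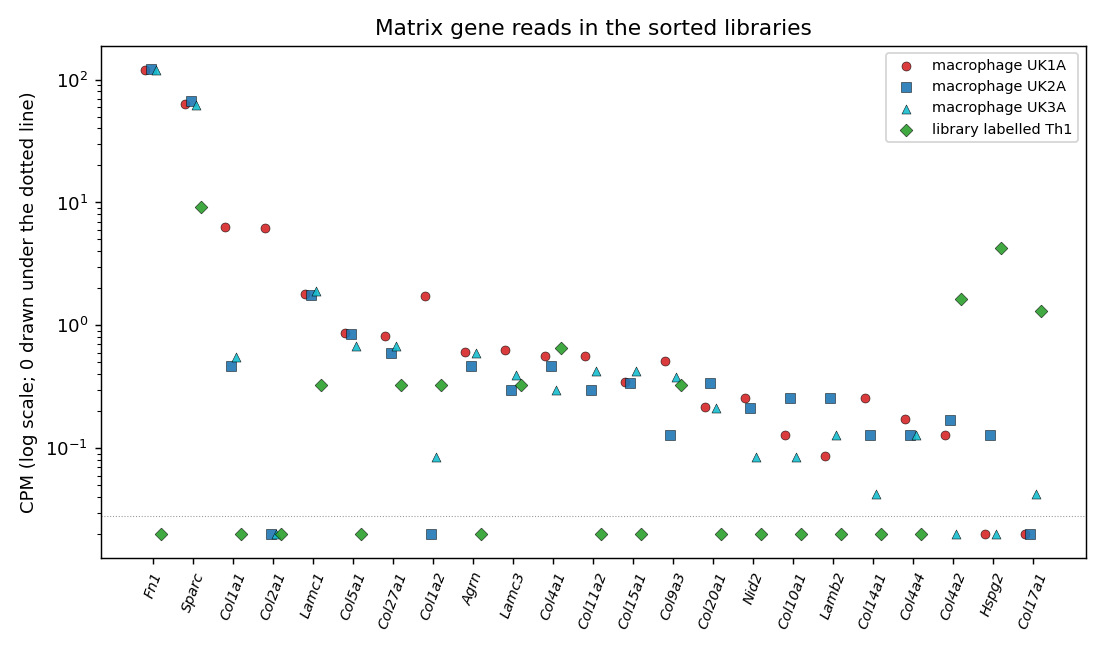
CPM (y axis, log scale) in each sorted library for the matrix genes with at least 10 reads over the macrophage libraries or more than 3 reads in the library labelled Th1 (x axis); values of 0 are drawn under the dotted line. Fn1 and Sparc are high in all 3 macrophage libraries, and Col1a1, Col2a1 and Col1a2 are high in UK1A alone.

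The macrophage library UK1A stood apart from the other 2 in 3 collagen genes. Col2a1 had 145 reads in UK1A and none in UK2A or UK3A. Col1a1 had 147, 11 and 13 reads, and Col1a2 had 40, 0 and 2. Those are the cartilage collagen and both chains of type I collagen, the collagen of bone, skin and tendon. In CPM UK1A exceeded the higher of the other libraries 11.5-fold for Col1a1 (exact 95% counting interval 6.49 to 22.0). With the other libraries set to a floor of 3 reads, the ratio was 49.0 for Col2a1 and 13.5 for Col1a2. Ratios to the floor leave out counting error and are not lower bounds. Without the floor the Col1a2 ratio to UK3A was 20.3 (exact 95% counting interval 5.25 to 173), from 40 and 2 reads.

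Across all genes such a gap was rare. Of 9699 genes with 30 reads or more in UK1A, 4 (0.0412%) were at least 3-fold above both other macrophage libraries, and 3 of those 4 were these collagens, which ranked 1 to 3. The other, Gm44805, was 3.25-fold higher. The same comparison found 2 of 9723 genes in UK2A (0.0206%) and 1 of 9731 in UK3A (0.0103%), with no matrix gene among them. The 3 genes were singled out after their values were seen, and they reached the minimum of 30 reads in UK1A alone. The count and the ranks therefore describe the gap and do not test it. Over all genes, the median squared difference was 1.40, 1.26 and 1.09 times the counting expectation for UK1A with UK2A, UK1A with UK3A and UK2A with UK3A. For genes with 1000 reads or more the mean was 5.87, 3.75 and 1.56 times that expectation in the same order, so both pairs with UK1A differed more than UK2A and UK3A did.

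The matrix genes Fn1, Sparc, Col5a1 and Lamc1, which had more reads, did not move with them. Fn1 had 2764, 2860 and 2832 reads and Sparc 1467, 1566 and 1446 in UK1A, UK2A and UK3A. Col5a1 had 20, 20 and 16 reads and Lamc1 42, 42 and 45. Col3a1 had 2, 0 and 0 reads and Col11a1 1, 0 and 0, too few to show a gap or its absence. Without UK1A the mean over the macrophage libraries fell from 0.223 to 0 TPM for Col2a1, from 0.217 to 0.0450 for Col1a1 and from 0.0600 to 0.0050 for Col1a2. The levels of these 3 genes in the macrophage group therefore rest on 1 library.

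**Figure D5:**
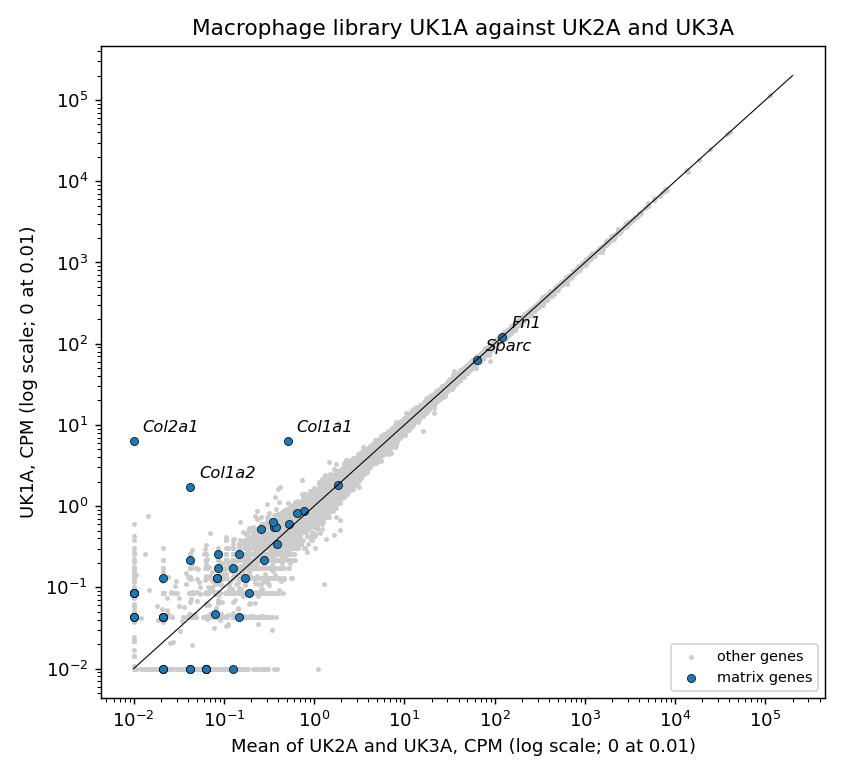
CPM of every gene in macrophage library UK1A (y axis) against the mean of UK2A and UK3A (x axis), both on log scales with 0 drawn at 0.01, and matrix genes in blue. Col2a1, Col1a1 and Col1a2 lie above the diagonal at 6.26, 6.34 and 1.73 CPM in UK1A, while Fn1 and Sparc lie on it.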

How the data were processed

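Members and lists were chosen with earlier results of these data known. Per the submitters' processing notes reads were placed on GRCm38, and no source used here names the aligner or counter. For the OPC libraries the authors deposited 1 comparison table. Per the file headers it holds a mean normalized count over the compared libraries (a signal), log2 fold changes and their standard errors, a score (the test statistic) and p-values, raw and adjusted, named as in DESeq2 output. The design had allowed for counts per library, and without them the authors' adjusted p-values were used as deposited. A note to the series says raw data are lacking for wild-type replicate 2. Each immune file deposited by the authors holds TPM and estimated counts per gene, rounded here to whole reads for intervals, and blanks were taken as 0. Of the per-sample columns, 8 were not used (FPKM and normalized counts). The macrophage codes match no label, so those columns were assigned to the group only.

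Exon lengths and coordinates came from GENCODE M21, matched by stable identifier for 60 of 60 members and 99.8% of all genes. Intervals were normal-approximation intervals from the SE (Benjamini-Hochberg and interval code tested on simulated data) or exact Poisson at 95%. Tables and figures were made with matplotlib 3.10.9 and pandas 2.3.3, and intervals with scipy 1.17.1, in Python 3.11.15. Named genes were those called, the 10 most negative and 10 most positive statistics at a mean of 10 or more, the 10 highest levels, class leaders, the Col4 pairs, and in the immune files members at 1 TPM or more with Fn1, Sparc and Lox. From companion lists the called genes and the 3 lowest p were named. Other genes were added after their values were seen. A few results are not reported here.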

Additional observations from a re-analysis of the deposited data

How the results depend on the processing

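The absence of a called member held with p-values adjusted over genes with a mean of 10 or more (lowest adjusted p 0.237), over every gene of the table (0.282) and at a threshold of 0.1 (0.286). The median log2 fold change stayed between -0.07 and -0.05 when low genes were left out or values were centred, and the share of negative values between 60% and 71.4%. With a mean of 100 or more, the signs of 4 of 10 class medians changed (transmembrane, multiplexin, laminin alpha and laminin gamma), where 1 or 2 genes were left in each, and the laminin alpha median moved from 0.08 to -0.21. With the statistic, which leaves out no gene, 1 class median changed sign (multiplexin, 2 genes of opposite sign). Per longest transcript or without division by length, 9 of 10 classes kept their leading gene, and Sparc made up 82.2% and 62.1% of the summed level. At 1 CPM in place of 1 TPM, 3 members were found in every macrophage library (Fn1, Sparc and Lamc1), and 2 at 0.5 and 5 TPM. Leaving out each macrophage library in turn gave 2 each time. The count of 3 members raised in UK1A stayed at 3 with a minimum of 10 reads and with TPM, and was 2 with a minimum of 100, alternatives chosen after seeing the data. No paired analysis was possible because the OPC table holds no values per library and the macrophage columns carry no replicate number. The replicate block, leaving out OPC libraries and a DESeq2 refit were therefore not run. Depth limits the library labelled Th1, where 3 reads equal 0.983 CPM, against 0.127 to 0.130 in the macrophage libraries.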

Other observations

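Genes of cartilage and bone other than the 3 collagens were read in the macrophage libraries after the gap in UK1A had been seen. In UK1A, UK2A and UK3A, Acan had 2, 0 and 0 reads, Sox9 2, 1 and 0, Comp 4, 3 and 4, and Sp7 1, 0 and 0, while Ibsp, Bglap, Matn1 and Hapln1 had none. Runx2 had 202, 248 and 250 reads and Spp1 141, 175 and 144.

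Enzymes that act on collagen chains differed in level between the sorted libraries, although collagen genes themselves had few reads in either. P4ha1, a catalytic subunit of collagen prolyl 4-hydroxylase, had 340 TPM in the library labelled Th1 and 0.990 ± 0.0600 (SD, n = 3) in the macrophage libraries. Serpinh1, the collagen chaperone HSP47, had 59.9 TPM against 0.0233 ± 0.0115 (SD, n = 3). Loxl2, a lysyl oxidase, had 42.4 against 1.11 ± 0.0700 (SD, n = 3). Npnt, encoding the basement membrane protein nephronectin, had 120 against 0.0600 ± 0.0200 (SD, n = 3). In the other direction, Tgfbi had 60.1 ± 0.981 TPM (SD, n = 3) in the macrophage libraries and Colgalt1 6.11 ± 0.147 (SD, n = 3), and both had 0 reads in the library labelled Th1. Of 20 collagen biosynthesis genes, 7 reached 1 TPM in all macrophage libraries and 4 did so in the library labelled Th1. The shares over all 22064 genes were 29.2% and 10.2%. Beside these values, Ly6c1 had 1874 TPM, macrophage markers summed to 12396 TPM and neutrophil markers to 24391 TPM in the library labelled Th1, and 1 of 5 T cell markers had a read. The part of other cell types in them was not tested. With 1 library of that label no test was made, and P4ha1, Serpinh1, Loxl2, Npnt, Tgfbi and Colgalt1 were chosen after their values were seen.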
